A study of Mus musculus with 4 samples.

Results

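Enteroendocrine cells are the hormone-secreting cells of the intestinal epithelium, and MSI2 (Musashi 2) is an RNA-binding protein of intestinal epithelial cells. The transcripts described here are those of 10 enteroendocrine genes, chosen by name, of 21900 protein-coding genes in the gene table: the granins Chga and Chgb, the hormone genes Cck, Sct, Gcg and Tac1, the serotonin enzyme gene Tph1, and the lineage transcription factor genes Neurog3, Neurod1 and Pax6. A peak was given to a gene when it shared at least 1 base with the mm10 span of that gene. MSI2-bound RNA was mapped by CLIP-seq, in which ultraviolet light joins RNA to protein and the RNA fragments that come down with an MSI2 antibody are sequenced. There were 2 libraries from wild-type mice (WT), made from intestinal crypts, and 2 from TRE-Msi2 mice, made from total intestinal epithelial cells after 24 hours of doxycycline, which induces the Msi2 transgene. All mice were on the C57BL6 background, and the labels state neither their ages, nor the driver of the transgene, nor any doxycycline for the WT mice. They also do not say whether the libraries of a genotype came from separate animals. Genotype, tissue fraction and doxycycline therefore cannot be told apart. The authors deposited 1 peak list per genotype, each pooling its 2 libraries, so the spread between replicates is unknown and genotypes were compared without a test.

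Enteroendocrine cells are scattered singly among absorptive and mucus-secreting cells and make up a small share of the epithelium. They arise from crypt progenitors that switch on Neurog3, and mature cells store peptide hormones or serotonin in dense-core granules that are packed with granins. Musashi proteins bind short motifs in messenger RNA and regulate its translation and stability. No transcript abundance was measured here, so a peak can reflect how much of an RNA was present as well as how much was bound.

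The WT list held 12061 peaks and the TRE-Msi2 list 16939. Scores are the authors' own, and they behave as the number of reads in a bin of 200 nt. The lowest score of a peak 1 bin wide was 15 for WT, whereas TRE-Msi2 started at 20. The median score over peaks of any width was 19 in WT, and in TRE-Msi2 it was 24.7. The depth of the libraries is unknown. Of peaks over a single protein-coding gene of known strand, 84.3% in WT (95% exact binomial interval 83.3% to 85.2%) and 86.3% in TRE-Msi2 (85.6% to 87.0%) lay on the strand of the gene. No bin held single-bin peaks on both strands in either list. Over peaks of any width, overlaps on opposite strands numbered 0 in WT and 4 in TRE-Msi2. Whether a score counts the reads of 1 strand or of both is not stated in the files or labels.

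Each granin and hormone gene of the 10 held a peak in at least 1 list, and the transcription factor genes and Tph1 held none. Of the 10 genes, 4 held a WT peak (Chgb, Cck, Sct and Tac1), and 5 held a TRE-Msi2 peak (Chgb, Chga, Cck, Sct and Gcg). Over all protein-coding genes the share with a peak was 20.3% in WT and 24.9% in TRE-Msi2. The enteroendocrine spans ran from 0.846 to 29.5 kb. Among genes with spans no longer than that, the share with a peak was 15% in WT and 19.1% in TRE-Msi2. Most genes of such spans thus held no peak, as did Tph1 and the transcription factor genes. The split between classes of gene was not tested. The exact binomial intervals were 12.2% to 73.8% for 4 of 10 and 18.7% to 81.3% for 5 of 10. They are wide and treat the genes as random draws, whereas these 10 were chosen by name. The intervals therefore cannot decide whether the counts differ from the background. No test of this was made. In all, 3 genes held a peak in both lists, 3 in a single list and 4 in neither. Every one of the 9 peaks was 1 bin wide, lay on the strand of its gene and touched no other gene span, and no gene held more than 1 peak in a list. For comparison, 63.2% of all WT and 58.8% of all TRE-Msi2 peaks were 1 bin wide, and 58.9% of the WT and 53.7% of the TRE-Msi2 genes with a peak held just 1.

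**Figure D1:**
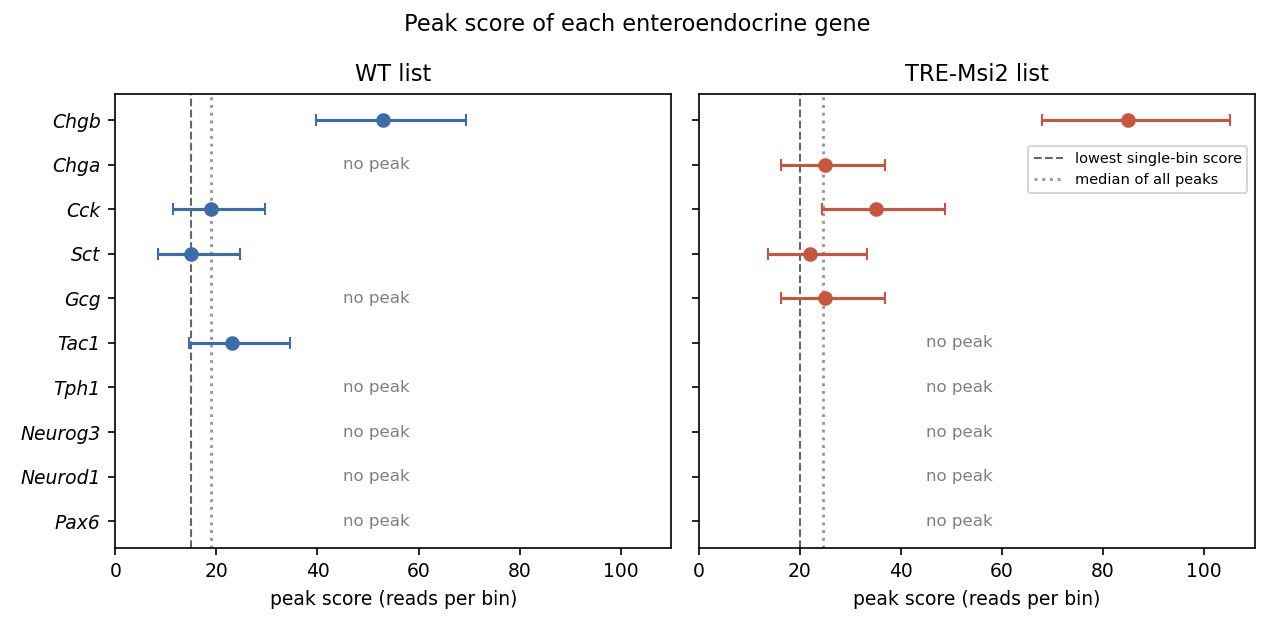
Score of the peak over each enteroendocrine gene (horizontal axis) in the pooled WT list (left) and the pooled TRE-Msi2 list (right). The axis unit, reads per bin, is inferred from the values. Bars are exact Poisson 95% intervals, which take the score as a read count and cover counting error only. Chgb stands at 53 and 85, while the other scores lie between 15 (Sct in WT) and 35 (Cck in TRE-Msi2).

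Chgb encodes chromogranin B, an acidic protein that packs hormones in the dense-core granule. It spans positions 132781642 to 132795079 of chromosome 2 on the plus strand. Its peak, at positions 132794865 to 132795064, had a score of 53 in WT (exact Poisson 95% interval 39.7 to 69.3, for counting error only) and 85 in TRE-Msi2 (67.9 to 105.1). This was the highest score of the 10 genes in both lists, and its interval lay above those of the other enteroendocrine peaks of the same list. The Chgb peak ranked 139th of the 12061 WT peaks and 56th of the 16939 TRE-Msi2 peaks. Among protein-coding genes ordered by their top score, Chgb was number 100 among 4449 in WT and number 41 among 5448 in TRE-Msi2. Among genes with exactly 1 peak it was number 23 among 2622 in WT and number 10 among 2924 in TRE-Msi2, where the median scores were 19.5 and 25. These ranks take in peaks wider than 1 bin, whose scores behave as means over their bins, so they do not compare like with like. Among single-bin peaks alone, the Chgb peak lay at the 99.6th percentile in WT and the 99.7th in TRE-Msi2.

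Chga encodes chromogranin A, the granin most used as a marker of endocrine cells. It spans positions 102554941 to 102565027 of chromosome 12 on the plus strand. It held no WT peak and a TRE-Msi2 peak at positions 102564791 to 102564990, with a score of 25 (16.2 to 36.9). That score lay at the 52.6th percentile of the TRE-Msi2 list, close to its median and far below the score of Chgb. The nearest WT peak, 3.76 kb away, lay in Itpk1 on the opposite strand.

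Cck encodes cholecystokinin, which contracts the gallbladder and stimulates pancreatic enzyme secretion. It spans positions 121489824 to 121495694 of chromosome 9 on the minus strand. Its peak, at positions 121489883 to 121490082 in both lists, had a score of 19 in WT (11.4 to 29.7) and 35 in TRE-Msi2 (24.4 to 48.7). The score equalled the median of the WT list (50.7th percentile) and lay at the 86.7th percentile of the TRE-Msi2 list.

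Sct encodes secretin, the hormone that drives bicarbonate secretion by the pancreas. It is the shortest of the 10 genes, at positions 141278329 to 141279174 of chromosome 7 on the minus strand. Its peak, at positions 141278302 to 141278501 in both lists, had a score of 15 in WT (8.40 to 24.7) and 22 in TRE-Msi2 (13.8 to 33.3). The WT value is the lowest that a single-bin peak reached in that list, and the TRE-Msi2 value is 2 above the lowest there. Their percentiles in the 2 lists were 12.5 and 31.2.

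Gcg encodes proglucagon, the precursor of the incretin GLP-1 and of GLP-2 in intestinal L cells. It spans positions 62474530 to 62483653 of chromosome 2 on the minus strand. It held no WT peak and a TRE-Msi2 peak at positions 62474744 to 62474943, with the same score as Chga, 25 (16.2 to 36.9). The nearest WT peak on its strand was 95.2 kb away, in Dpp4.

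Tac1 encodes the precursor of the tachykinins substance P and neurokinin A, which in the gut are made by enteric neurons and by some enterochromaffin cells. It spans positions 7555061 to 7562978 of chromosome 6 on the plus strand. It held a WT peak at positions 7562601 to 7562800, with a score of 23 (14.6 to 34.5), at the 72.9th percentile of the WT list. It held no TRE-Msi2 peak, and the nearest on its strand was 303 kb away, in C1galt1. Tac1 was the only one of the 10 genes with a WT peak alone.

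The 4 genes with no peak in either list were Tph1, Neurog3, Neurod1 and Pax6. Tph1, on chromosome 7, encodes the enzyme that limits serotonin synthesis in enterochromaffin cells. Neurog3, on chromosome 10, encodes the factor that starts the endocrine lineage in progenitors. Neurod1 and Pax6, both on chromosome 2, encode factors that act later in endocrine differentiation. The nearest peaks on the strand of these genes lay 107 to 379 kb away. Over Tph1 the nearest was 214 kb away in both lists, in Kcnc1, and over Neurog3 it was 235 kb away in both, in Hk1. A gene with no peak had no bin that reached the list, which does not show that its RNA was absent or unbound.

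The peaks lay at or near the transcript end of the gene span. The edge of the peak was 15 nt from the end of the gene span in Chgb, 37 nt in Chga, 59 nt in Cck, 178 nt in Tac1 and 214 nt in Gcg, and in Sct the peak ran 27 nt past the end. Among all protein-coding genes with a lone single-bin peak on their own strand, the median distance was 752 nt in WT (quartiles 157.5 and 2268, 1135 genes) and 792 nt in TRE-Msi2 (quartiles 132 and 2622, 1233 genes). Restricted to spans no longer than 29.5 kb, the medians were 433 nt (643 genes) and 394.5 nt (718 genes). Each enteroendocrine peak was closer to the end than these medians, but such a place was common. Among the genes of the shorter spans, 34.7% in WT lay as close as Tac1 (178 nt) or closer, and 39.7% in TRE-Msi2 as close as Gcg (214 nt) or closer. Because the genes are few and short, this is a description and was not tested. Exon boundaries and the genome sequence were not used here, so the bases under the peaks are not shown.

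**Figure D2:**
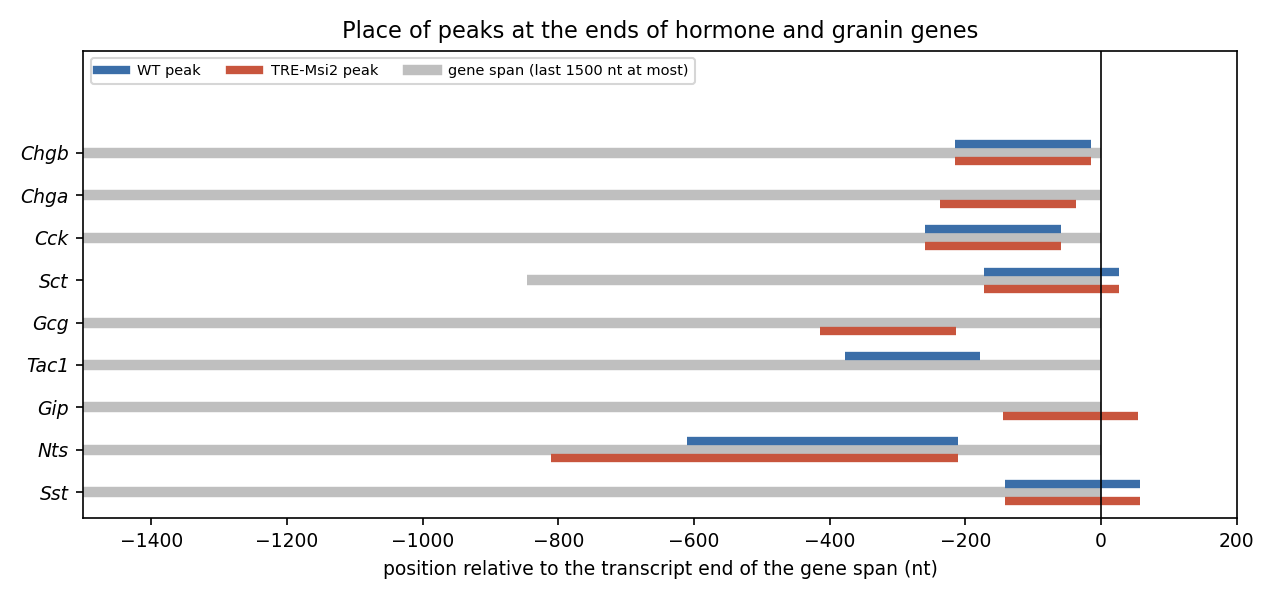
Place of the peaks relative to the transcript end of the gene span, in nt (0 is the end, and the gene reads from left to right). Grey bars are gene spans, cut at 1500 nt, with WT peaks in blue and TRE-Msi2 peaks in red. The peaks of all 9 genes lie at the end of the span: those of Sct, Gip and Sst cross it, and those of Gcg and Nts stop 214 and 211 nt before it.

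Chgb, Cck and Sct had their peak in exactly the same bin in both lists. Overlapping single-bin peaks of both lists on the same strand had identical coordinates in 99.4% of 3965 pairs, so identical bins follow from a shared grid. Over the 3943 identical single-bin peaks the median ratio of the TRE-Msi2 to the WT score was 1.52 (quartiles 1.31 and 1.75). The ratio was 1.60 for Chgb, 1.84 for Cck and 1.47 for Sct, and these ratios stood at percentiles 61.8, 81.9 and 44.2 of all such peaks. All 3 lay between the 5th and 95th percentiles of the ratio, 1.04 and 2.13. Peaks in both lists had to pass a floor in each, and the ratio of the floors alone is 1.33.

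**Figure D3:**
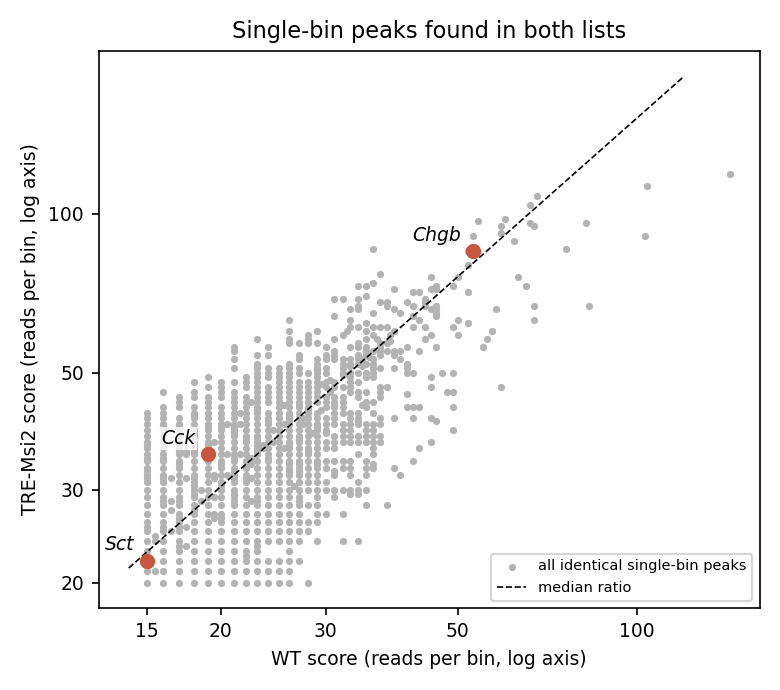
Score in the TRE-Msi2 list against score in the WT list, on log axes, for the 3943 single-bin peaks with identical coordinates and strand in both lists (grey; points with equal values coincide). The dashed line is the median ratio, 1.52. Chgb, Cck and Sct (red) lie within the cloud, Chgb and Cck above the line and Sct just below it.

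Chga and Gcg had a TRE-Msi2 peak alone, as did 23.2% of all protein-coding genes with a TRE-Msi2 peak. Both scored 25. Of the 565 single-bin TRE-Msi2 peaks with exactly that score, 205 (36.3%, exact binomial interval 32.3% to 40.4%) overlapped a WT peak. A lack of a WT counterpart was thus the more common outcome at their score. Tac1 had a WT peak alone, as did 5.91% of all protein-coding genes with a WT peak. Of the 367 single-bin WT peaks with its score of 23, 355 (96.7%, 94.4% to 98.3%) overlapped a TRE-Msi2 peak. Tac1 was therefore in the small share of WT peaks of this score with no counterpart in the longer list. It is a single bin in a pooled list, and no replicate check was possible.

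Other genes of the enteroendocrine system were counted from 5 lists of 55 genes in all, of which 6 held a WT peak and 9 a TRE-Msi2 peak. Both counts are lower shares than those over all protein-coding genes, 20.3% in WT and 24.9% in TRE-Msi2. The spans of the 55 genes were not matched to this background. For protein-coding genes with spans up to 29.5 kb, the shares were 15% in WT and 19.1% in TRE-Msi2. The difference was not tested. Of 10 other hormone genes, 2 held a WT peak and 3 a TRE-Msi2 peak. Sst, the gene of the inhibitory hormone somatostatin, held a single-bin peak that ran 58 nt past the gene end in both lists, with scores of 25 in WT and 33 in TRE-Msi2. Nts, the gene of neurotensin, held a peak 400 nt wide in WT with a score of 35 and a peak 600 nt wide in TRE-Msi2 with a score of 27.2. Scores of peaks wider than 1 bin behave as means over their bins, so these scores are over different lengths. Gip, the gene of an incretin hormone, held a TRE-Msi2 peak alone, with a score of 21. All 5 peaks of these hormone genes lay on the strand of their gene. Gast, Ghrl, Pyy, Iapp, Ucn3, Insl5 and Penk held none.

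Of 14 granule and prohormone processing genes, the same 3 held a peak in both lists, Scg5, Cpe and Ddc. Their spans run from 52.8 to 101 kb, far longer than those of the hormone genes. Cpe, the carboxypeptidase that trims prohormones, scored 13.8 in WT and 19.3 in TRE-Msi2, at the 4.90th and 6.36th percentiles. Its peaks were 600 nt wide in WT and 400 nt in TRE-Msi2. Such scores behave as means over bins, so these percentiles do not compare like with like. The strand of Cpe was not in the records used here. Ddc, the decarboxylase that makes serotonin and dopamine, held 3 WT and 3 TRE-Msi2 peaks, and its top scores were 27 and 31. Scg5, a granin family member, held 3 WT peaks on its own strand, with a top score of 29. In TRE-Msi2 it held 2 peaks, of which the top one, with a score of 36, lay on the opposite strand. The top WT peak of Scg5 lay 36731 nt from the gene end, and the top Ddc peaks 48097 nt in WT and 47697 nt in TRE-Msi2. These peaks, on the strand of their gene, were far from the end, unlike those of the hormone genes. The opposite-strand TRE-Msi2 peak over Scg5 lay 34731 nt from that end. The prohormone convertase genes Pcsk1 and Pcsk2 and the granin genes Scg2 and Scg3 held none.

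Among 13 other lineage transcription factor genes 0 held a WT peak and 1 a TRE-Msi2 peak, Lmx1a, with 3 peaks over a span of 161 kb and a top score of 21. Among 8 nutrient and irritant receptor genes 0 held a peak in either list. Of 10 hormone receptor genes, 1 held a WT peak (Tacr1, the substance P receptor) and 2 a TRE-Msi2 peak (Tacr1 and the cholecystokinin receptor Cckar, the latter with a score of 24). The peaks over Tacr1 lay in the same bin but on opposite strands. It was on the strand of the gene in WT, with a score of 22, and on the other strand in TRE-Msi2, with a score of 62. The higher score over Tacr1 is thus listed on the strand opposite its transcript. Whether that score counts the reads of 1 strand or of both is not stated.

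The labelled cell type, intestinal epithelial cells, was set beside marker lists. Peaks were found in both lists over 10 of 10 enterocyte, 6 of 6 Paneth and 5 of 7 goblet cell genes. Among enterocyte genes with spans in the range of the enteroendocrine genes, Alpi and Apoa1 each held 2 peaks in both lists, and Fabp1 held 3 in WT and 4 in TRE-Msi2. Apoa4 went the other way, with 5 in WT and 3 in TRE-Msi2. Fabp2 held 4 in both lists, all of which touched other gene spans. Anpep, over 26.4 kb, held 11 and 12. Sis, with 35 WT and 44 TRE-Msi2 peaks, spans 79.3 kb. Of 4 tuft cell genes, only Dclk1 held WT peaks, 2 over a span of 297 kb, and 0 held a TRE-Msi2 peak. Among 3 immune genes 1, Cd74, held a peak in both lists. Some of the enteroendocrine genes, such as Chgb and Tac1, are also expressed in neurons. Of 11 enteric neuron genes 1, Snap25, held a peak, with scores of 17 in WT and 19 in TRE-Msi2 over a span of 69.0 kb. This peak was 400 nt wide in both lists, so its scores behave as means over bins. The strand records used here do not cover Snap25, so whether its peak is on the strand of the gene is unknown. Elavl4, Tubb3, Uchl1, Prph and Stmn2 held none, and neither did any of 4 enteric glia or 4 stromal genes. The part of other cell types in the enteroendocrine peaks was not tested, and fewer cells of a type and less RNA per cell cannot be told apart in such material.

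**Figure D4:**
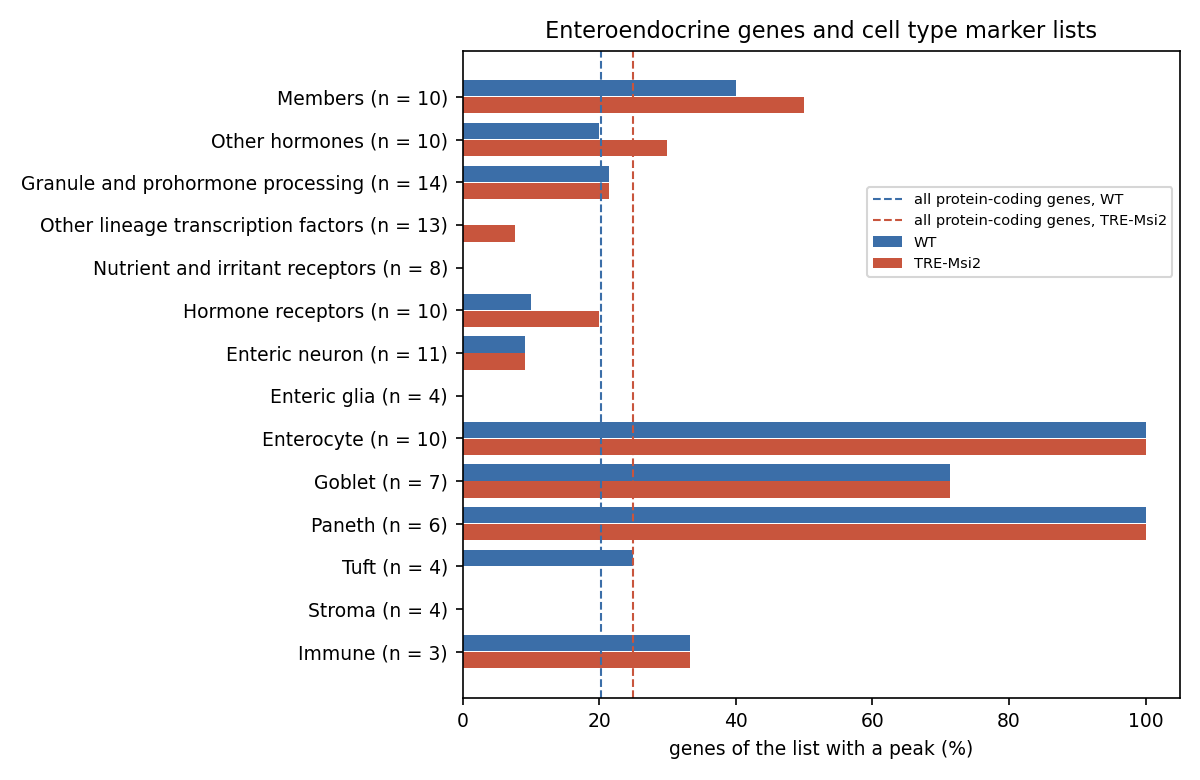
Share of the genes of each list with a peak (%) in the WT list (blue bars) and the TRE-Msi2 list (red bars), with the number of genes in each list. Dashed lines give the share over all protein-coding genes, 20.3% in WT and 24.9% in TRE-Msi2. The 10 enteroendocrine genes stand at 40% and 50%, below the enterocyte, Paneth and goblet cell lists.

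The genes whose top scores stood most like those of Chgb were Bsg, Mep1b and Prex2. The measure was the distance between the percentiles of a gene's top score among genes with a peak, taken over the 2 lists for the 4186 genes with a peak in both. Bsg, the basigin gene, had top scores of 52 in WT and 85 in TRE-Msi2. Mep1b, a brush-border peptidase gene, had 53.5 and 87, and Prex2 had 52 and 80. With 2 pooled values per gene, this is a likeness of rank alone.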

How the data were processed

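MSI2 CLIP-seq was analysed from 2 peak lists. Per the submitters' processing notes, cutadapt and TopHat were used and the builds mm9 and mm10 are named; versions and roles are not stated there. The names of the files state Piranha peaks after removal of duplicates, with libraries of a genotype merged. The authors deposited, per peak, its position and strand and, joined in 1 field, a score and a p-value; what the score counts is inferred from its values (99.1% of WT and 96.7% of TRE-Msi2 single-bin scores are whole numbers). Spans came from a RefSeq table of GRCm38.p6 and strand from RefSeq promoter records, which cover 17492 of 21900 protein-coding genes and all 10 described here. Overlaps of at least 1 base were counted with Python 3.11.15 and pandas 2.3.3, and the overlap step was tested on simulated peaks (200 of 200 recovered, 1782 genes of chromosome 2). Percentiles give the share of peaks in a list with a lower score, with ties counted at their mid-rank. Intervals on shares (Clopper-Pearson) and scores (Poisson) have a level of 95% and cover counting error only. No test across genes was made, because each genotype has 1 pooled list. The rule for named genes took all 10 genes, every gene with a peak in the 5 other enteroendocrine lists, and the 3 genes nearest to the highest-scoring one. Other genes named, those without a peak and those of the marker lists, are examples chosen after their values were seen. These genes and lists were chosen with earlier results of these data known.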

Additional observations from a re-analysis of the deposited data

How the results depend on the processing

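The counts of 4 WT and 5 TRE-Msi2 genes with a peak, and of 3 shared peaks, were within 1.5 times of these values under every alternative run but 1: with the upper 50% of the list by score, 2 genes held a WT peak (Chgb and Tac1). Sct lay below that limit, and Cck, whose score of 19 equals the WT median, fell among ties. With spans extended by 5 kb the WT count was 5, through an Itpk1 peak beside Chga on the opposite strand; on the strand of the gene, an alternative added after seeing the data, it was 4. Percentiles of the score depended on what they were set against. Among single-bin peaks, they were 99.6 (Chgb), 49.8 (Cck), 7.94 (Sct) and 73.8 (Tac1) in WT, and 51.8 (Chga and Gcg) and 30.2 (Sct) in TRE-Msi2. Among top scores of protein-coding genes with a peak, they were 97.7 (Chgb), 35.2 (Cck), 5.83 (Sct) and 58.8 (Tac1) in WT, and 99.2 (Chgb), 76.3 (Cck), 35.8 (Chga and Gcg) and 19.1 (Sct) in TRE-Msi2. This follows from the construction, since a top score is the highest of a gene's peaks. No paired analysis was possible because each list pools the replicates of a genotype, and no replicate could be left out. Genes scoring near 15 in WT or 20 in TRE-Msi2 sit at the limit of the lists.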

Other observations

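The change of strand seen over Tacr1 was not isolated. Of 4090 bins that held a single-bin peak in both lists, 147 carried it on opposite strands and 3943 on the same strand, and none held single-bin peaks on both strands within a list. None of the enteroendocrine peaks of Chgb, Cck or Sct was among the 147.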
